A study of Mus musculus with 74 samples.

Results

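The regions described here were all 14401 windows of 40 kb on mouse chromosomes 1, 8, 11 and 14, out of 68162 windows in the table and 61816 on chromosomes 1 to 19. They were chosen by chromosome, with earlier results of these data known, because these autosomes are among those often gained in cultured mouse embryonic stem cells. Chromosome 1 held 4930 windows, chromosome 8 held 3294, chromosome 11 held 3047 and chromosome 14 held 3130, and the 47415 windows of the remaining 15 autosomes served as the reference. The data were 74 genome architecture mapping (GAM) libraries, each holding 1 nuclear profile, the piece of a nucleus caught in a thin cryosection, from 46C cells. This is 1 line of strain 129/Ola, derived from the E14tg2a line and carrying a GFP knock-in at Sox1, kept in serum with LIF and moved to serum-free ESGRO medium before harvest. There was 1 group and no treatment, 34 libraries have titles beginning with f13 and 40 with f14, and the labels do not say what the prefix stands for. The study lists both prefixes under the same biological replicate. Each profile came from its own nucleus of the same line, so every p-value below measures the spread between profiles and not between cultures.

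Mouse embryonic stem cells in culture can acquire whole extra chromosomes, and a cell with such a gain can come to dominate a dish when it grows faster than its neighbours. In GAM a locus is scored as present when at least one of its copies falls in the slice, so the share of slices that hold it grows with the number of copies in the nucleus. Chromosome X, present once per cell in a male line, was taken as a natural scale for a copy lost. Its ratio came out lower than that scale, as described below.

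Detection of a chromosome is measured throughout as the percent of its windows scored as present per library, and a ratio is the mean over the 74 libraries for a chromosome divided by that for the reference. The reference was positive in 5.65% ± 2.99 of windows (SD, n = 74), with a lowest library at 0.0232%, a median of 5.27% and a highest of 14.2%. At this level, 3 copies instead of 2 in every cell would give a ratio of 1.47 if copies fell in slices independently, close to the 1.5-fold taken as the mark of a gain, and 1 copy would give 0.509. Intervals are 95% intervals from sign flips of the library differences, and p-values are adjusted by Benjamini-Hochberg over all 19 autosomes or all segments. A total of 5 libraries had under 1% of the genome positive and were kept. The deposited table holds calls and no reads, and read depth per library was not used here.

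A stretch of the window detected in the most libraries on each chromosome is printed from the NCBIM37 (mm9) plus strand. Whether these bases gave the calls was not tested. Each stretch was chosen as the 300 bases of its window richest in words of 12 bases found more than once in that window, so its repeats follow from the choice. Capitals mark the bases inside such words.
Chromosome 1, chr1:38057374-38057673: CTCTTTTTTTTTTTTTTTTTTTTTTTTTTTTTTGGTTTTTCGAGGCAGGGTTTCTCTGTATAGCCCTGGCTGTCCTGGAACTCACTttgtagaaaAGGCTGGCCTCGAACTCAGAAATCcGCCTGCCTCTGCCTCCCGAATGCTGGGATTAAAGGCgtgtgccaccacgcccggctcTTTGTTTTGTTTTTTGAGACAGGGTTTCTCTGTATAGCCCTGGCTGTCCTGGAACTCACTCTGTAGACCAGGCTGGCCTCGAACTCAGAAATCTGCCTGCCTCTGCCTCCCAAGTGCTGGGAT
Chromosome 8, chr8:19924175-19924474: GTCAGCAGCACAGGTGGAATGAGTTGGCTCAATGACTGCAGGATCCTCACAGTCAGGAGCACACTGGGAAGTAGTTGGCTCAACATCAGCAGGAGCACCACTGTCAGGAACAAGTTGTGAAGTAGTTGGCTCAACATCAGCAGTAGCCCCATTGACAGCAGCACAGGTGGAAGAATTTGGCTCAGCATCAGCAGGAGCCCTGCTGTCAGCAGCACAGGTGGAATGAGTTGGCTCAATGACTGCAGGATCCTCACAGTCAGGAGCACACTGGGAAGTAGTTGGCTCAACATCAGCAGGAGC
Chromosome 11, chr11:3051576-3051875: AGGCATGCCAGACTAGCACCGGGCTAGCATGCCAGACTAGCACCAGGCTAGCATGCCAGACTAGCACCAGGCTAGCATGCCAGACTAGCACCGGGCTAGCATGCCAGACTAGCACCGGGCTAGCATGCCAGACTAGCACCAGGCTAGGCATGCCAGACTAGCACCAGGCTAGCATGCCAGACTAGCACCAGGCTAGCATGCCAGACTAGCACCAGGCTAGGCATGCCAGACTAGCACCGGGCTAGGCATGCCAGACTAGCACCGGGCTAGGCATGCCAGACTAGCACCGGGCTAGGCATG
Chromosome 14, chr14:7765797-7766096: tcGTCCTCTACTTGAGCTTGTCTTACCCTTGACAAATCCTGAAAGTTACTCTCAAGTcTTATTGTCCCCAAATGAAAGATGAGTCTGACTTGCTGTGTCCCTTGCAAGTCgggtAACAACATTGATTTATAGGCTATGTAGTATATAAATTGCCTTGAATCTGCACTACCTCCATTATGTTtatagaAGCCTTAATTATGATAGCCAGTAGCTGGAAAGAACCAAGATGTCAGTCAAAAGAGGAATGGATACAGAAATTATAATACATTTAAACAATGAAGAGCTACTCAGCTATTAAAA

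The chromosome 11 stretch is a tandem array. It lies in an intron of Sfi1, which encodes a centrosomal protein, in the window chr11:3040001-3080000. That window was positive in 53 of 74 libraries (71.6%), 25 of them f13 and 28 f14, whereas the 13 of its 24 neighbouring windows with known sequence averaged 10.8 libraries and ranged from 3 to 49. The other neighbours lie in unknown bases. In the assembly 89% of the words of 32 bases sampled from it occurred once, and 87.1% of those of its neighbours. On chromosome 8 the adjacent windows chr8:19920001-19960000 and chr8:19960001-20000000 shared the highest count of 18 libraries. The 14 of 24 neighbours of the first with known sequence, which include the other one, averaged 7.5 and ranged from 0 to 18, and the stretch shown consists wholly of repeated words inside an intron of 2610005L07Rik and overlapping gene models. Of its sampled words 16% were unique, against 42.3% among its neighbours.

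On chromosome 14 the window chr14:7760001-7800000 was positive in 15 libraries against a neighbour mean of 2.21 and a range of 0 to 11, and 18% of its sampled words were unique, against 6.63% among its neighbours. The stretch lies in an intron of the overlapping models Gm10406 and Gm3667. On chromosome 1, 3 windows shared the highest count of 15 libraries, chr1:38040001-38080000, chr1:130920001-130960000 and chr1:137200001-137240000. Their neighbours averaged 9.08, 6.08 and 7.29 libraries and reached 14, 12 and 13, and 88%, 92% and 89% of their words were unique. The stretch shown is from the first by position, in an intron of Eif5b, a translation initiation factor gene. The mean number of libraries per window was 5.01 on chromosome 1, 3.27 on chromosome 8, 4.62 on chromosome 11, 3.56 on chromosome 14 and 4.18 on the reference. Windows positive in more than 15 libraries were few, with 0 on chromosome 1, 2 on chromosome 8, 3 on chromosome 11 and 0 on chromosome 14.

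None of the 4 chromosomes was detected at a level that differed from the reference after adjustment, and all 4 were below the 1.5-fold mark. Chromosome 1 was positive in 6.77% ± 5.99 of windows (SD, n = 74), with libraries from 0 to 22.2% around a median of 5.95%, and exceeded the reference in 41 of 74 libraries. Its ratio was 1.20 (95% interval 0.970 to 1.44). Chromosome 11 followed at 6.24% ± 6.43, with a median library of 4.14%, a highest of 23.1% and a ratio of 1.1 (0.859 to 1.36). It was above the reference in 32 libraries. Both means sat above the reference, but both intervals included 1.

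Chromosomes 14 and 8 lay on the other side. Chromosome 14 was positive in 4.81% ± 6.15 of windows, with 8 libraries at 0, a median of 3.02% and a highest of 27.7%, and its ratio was 0.850 (0.628 to 1.07). Chromosome 8 was positive in 4.42% ± 5.33, with 4 libraries at 0, a median of 2.13%, a highest of 21.8% and a ratio of 0.783 (0.566 to 1.02). The two-sided sign-flip permutation p against a ratio of 1 was 0.0881 for chromosome 1, 0.0655 for chromosome 8, 0.408 for chromosome 11 and 0.171 for chromosome 14, and the adjusted values were 0.558, 0.558, 0.863 and 0.650. Over all 19 autosomes the percent called against the reference was 0.

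Against 1.5-fold the adjusted sign-flip p was 0.0153 for chromosome 1, 9.5e-05 for chromosome 8, 0.00393 for chromosome 11 and 9.5e-05 for chromosome 14. The percent of the 19 autosomes called below 1.5-fold was 100, so these calls are shared with every autosome. All 19 were also called above 0.5-fold. Within f13 libraries that call was lost for chromosomes 8 and 14, with ratios of 0.709 and 0.693 and an adjusted p of 0.167 for each. The chromosome 1 call was lost when isolated positive windows were set to negative (ratio 1.23, adjusted p = 0.0520), when libraries were weighted equally (1.29, adjusted p = 0.139) and within f14 libraries. The other 15 autosomes spanned ratios from 0.795 on chromosome 7 to 1.17 on chromosome 9. Chromosome 1 exceeded this range and chromosome 8 fell below it, without a test of either. Neither rank held in every setting. With windows of 200 kb, chromosome 9 (1.173) was above chromosome 1 (1.160). Within f13 libraries, chromosome 1 (0.947) was below chromosome 3 (1.16). With isolated positive windows set to negative, chromosome 7 (0.729) was below chromosome 8 (0.746).

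The intervals limit a whole-chromosome gain unevenly. If each cell with 3 copies added 0.5 of the reference level and the chromosome otherwise matched the reference, the upper end for chromosome 8 equals a gain in 3.06% of cells and that for chromosome 14 in 13.3%. For chromosomes 11 and 1 the same arithmetic gives 71.7% and 87.5%, so a gain in many cells was not detectable as different from none on these. The match to the reference is an assumption, because the other autosomes themselves spanned ratios from 0.795 to 1.17. If chromosome 8 or 14 lay below the reference without a gain, the same upper end would allow a gain in more cells. These limits depend on the setting. The upper end ran from 0.994 to 1.21 for chromosome 8, from 0.964 to 1.33 for chromosome 14, from 1.26 to 1.61 for chromosome 11 and from 1.19 to 1.85 for chromosome 1 over the alternatives. Within f14 libraries it equals a gain in 42.9% of cells for chromosome 8 and 65.8% for chromosome 14. Chromosome X was positive in 2.06% ± 3.0 of windows (SD, n = 74), a ratio of 0.364 (0.245 to 0.488), below the reference in 64 of 74 libraries. Its sign-flip permutation p was 1e-05 against 1, the smallest these permutations can give, and 0.032 against 0.5. Against 0.5 the call was lost with windows of unique sequence only (ratio 0.374, p = 0.0591) and with windows of 200 kb (0.400, p = 0.107). The upper end of 0.488 was below the 0.509 computed above for a copy lost, so chromosome X did not match that scale. With windows of 200 kb the upper end was 0.522. Of the sampled words of 32 bases on chromosome X, 70.3% occurred once in the assembly. The autosomes ran from 78.6% on chromosome 7 to 88.7% on chromosome 11. Whether this bears on the ratio of chromosome X was not tested.

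**Figure D1:**
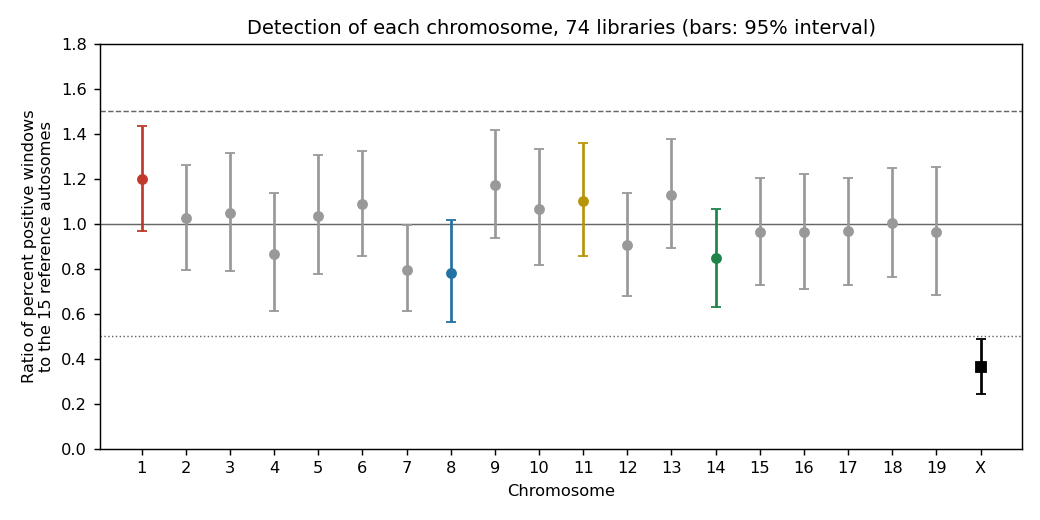
Ratio of the percent of positive windows to the reference autosomes for chromosomes 1 to 19 and X over 74 libraries, with 95% intervals as bars; lines mark 0.5, 1 and 1.5. Chromosome 1 (red) is at 1.20, 8 (blue) at 0.783, 11 (yellow) at 1.1, 14 (green) at 0.850 and X (black square) at 0.364.

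Many libraries held little or none of a given chromosome. A library was taken to hold a chromosome when it had a run of at least 3 adjacent positive windows. By this measure 58 of 74 libraries held part of chromosome 1 (78.4%, 95% Wilson interval 67.7% to 86.2%), 57 held chromosome 11 (77.0%), and 48 each held chromosomes 8 and 14 (64.9%, interval 53.5% to 74.8%). The remaining autosomes ranged from 43 to 59 libraries with a median of 53. A longer chromosome has more places for such a run, and no adjustment for length was made. Chromosome 1 is the longest autosome at 197 Mb, and chromosome 19, with 43 libraries, is the shortest at 61.3 Mb. In the libraries that held it, chromosome 1 was positive in 8.58% of windows, chromosome 11 in 8.02%, chromosome 14 in 7.25% and chromosome 8 in 6.70%, and the other autosomes spanned 5.97% to 9.27%. All 4 chromosomes were held together in 27 libraries, 3 of them in 24, and none in 5.

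**Figure D2:**
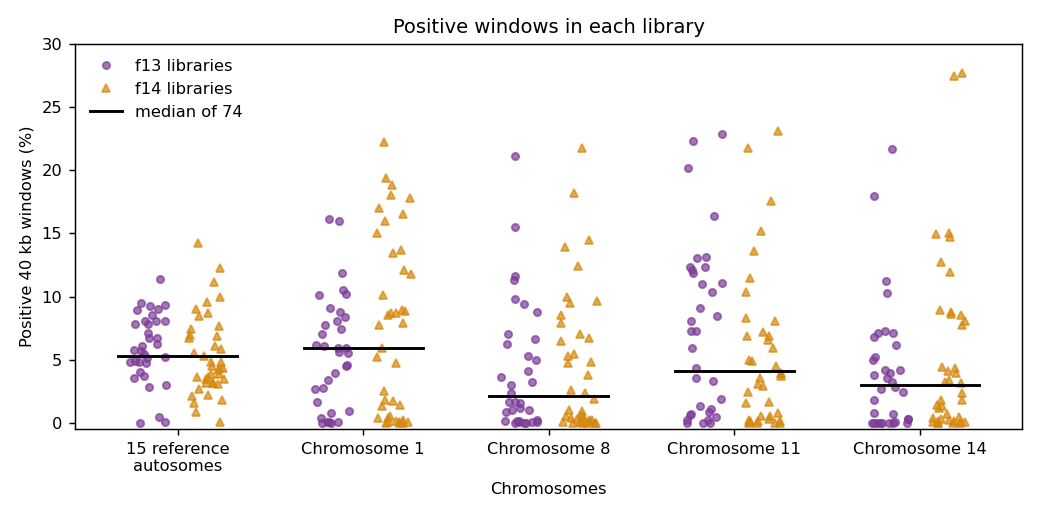
Percent of positive 40 kb windows in each of 74 libraries for the 15 reference autosomes and for chromosomes 1, 8, 11 and 14, with f13 libraries as circles, f14 as triangles and the median as a line. Medians are 5.27%, 5.95%, 2.13%, 4.14% and 3.02%, and the highest point is 27.7% on chromosome 14.

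The highest value on chromosome 14, 27.7%, was in f14b3, which also had the highest reference coverage of 14.2%. The highest chromosome 8 value came from f14b1, with a reference of 12.2%. The library f14a3 reached 22.2% on chromosome 1 with a reference of 7.0%, and f14a6 reached 23.1% on chromosome 11 with 7.46%. High values on chromosomes 14 and 8 also came in other libraries. On chromosome 14, f14b6 reached 27.5% with a reference of 8.71%, above the third quartile of 7.86%. On chromosome 8, f13f2 reached 21.2% with a reference of 6.74%. These 2 libraries were named after their values were seen. Across the 74 libraries, coverage of chromosome 14 rose with that of the reference (Pearson r = 0.519, Spearman rho = 0.389, adjusted permutation p = 4e-05 and 0.0012). It did so for chromosome 1 (r = 0.383, rho = 0.415, adjusted p = 0.00146 and 0.00092) and for chromosome 11 (r = 0.365, rho = 0.381, adjusted p = 0.00181 and 0.0012). For chromosome 8 no relation was detected (r = 0.166, rho = 0.115, adjusted p = 0.157 and 0.325). Without the 2 libraries farthest from the median reference coverage, r was 0.423, 0.113, 0.336 and 0.401 for chromosomes 1, 8, 11 and 14. Within f13 it was 0.449, 0.112, 0.465 and 0.412, and within f14 it was 0.397, 0.209, 0.268 and 0.603. These 4 relations formed 1 family.

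Of the 4 chromosomes, chromosome 1 differed most in ratio between the 2 title prefixes, though not past the threshold after adjustment. In f13 its ratio was 0.947 (0.721 to 1.19), and in f14 it was 1.43 (1.05 to 1.85). Within f14 it was called different from neither 1 (adjusted sign-flip p = 0.519 over the 19 autosomes) nor 1.5-fold (adjusted p = 0.743). The difference of -0.49 had a permutation p of 0.0373 and, over the 4 chromosomes, an adjusted p of 0.149. Chromosome 1 was therefore above the reference on average in f14 and slightly below it in f13. Chromosome 11 went the other way, at 1.25 in f13 and 0.965 in f14 (adjusted permutation p of the difference 0.348). In f13 alone its ratio was not called below 1.5-fold (unadjusted sign-flip p = 0.157). Chromosome 8 was at 0.709 and 0.853 (adjusted p = 0.527) and chromosome 14 at 0.693 and 0.999 (adjusted p = 0.333). Chromosomes 8 and 14 were below 1.5-fold within both prefixes. None of the 4 differences passed the threshold.

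**Figure D3:**
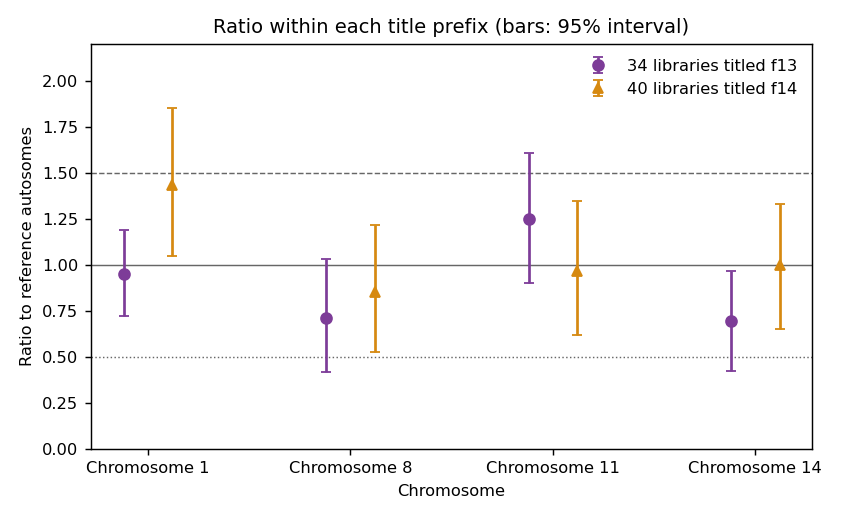
Ratio to the reference autosomes for chromosomes 1, 8, 11 and 14 within the 34 f13 (circles) and 40 f14 (triangles) libraries, with 95% intervals as bars and lines at 0.5, 1 and 1.5. Chromosome 1 is at 0.947 in f13 and 1.43 in f14, the widest gap of the 4.

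A gain or loss of part of a chromosome was sought in segments of 10 Mb, numbered from the centromeric end. The 58 segments of the 4 chromosomes had ratios from 0.276 to 1.57 with a median of 1.01, and the 189 others ran from 0.354 to 1.48 with a median of 0.992. Ratios above 1 were found in 30 of the 58 and in 89 of the 189 others. Segments of a chromosome share its libraries, so the counts given below for single chromosomes largely restate their whole-chromosome ratios. No segment of the 4 chromosomes was called higher than the reference, and 1 was called lower. Over all 247 segments the percent called higher was 0 and lower 0.81. Before adjustment, 1 of the 58 segments was higher and 7 were lower by sign flips at p under 0.05, against 2 and 6 of the 189 others.

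Values in single segments were strongly skewed, with many libraries at 0 and a few high, and the sign-flip test assumes symmetry. Among all 247 segments it gave 13 lower and 3 higher at an unadjusted p under 0.05, while a test on the log ratio with jackknife standard errors gave 6 and 6. Among the 58 segments the log-ratio test gave 3 lower and 1 higher before adjustment. It also called 1 member segment lower and 0 higher, against 0.81% and 0% of all segments. Against 1.5-fold, 33 of the 58 segments were below by sign flips, where 59.1% of all segments were, and 21 by the log ratio, where 39.7% were. The members' shares were close to these, and no segment was called above 1.5-fold.

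On chromosome 1, 18 of 20 segments had a ratio above 1. The highest was chr1:130000001-140000000, with 120 protein-coding genes, at 1.57 (1.06 to 2.1, adjusted sign-flip p = 0.687). It was positive in 8.85% ± 12.7 of windows (SD, n = 74), with 26 libraries at 0 and the highest at 45.2%. The lowest was chr1:110000001-120000000, a region with 4 protein-coding genes, at 0.951 (0.639 to 1.27). No boundary between segments divided chromosome 1 into parts that differed (lowest adjusted sign-flip p = 0.944 over 19 boundaries).

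Chromosome 8 showed the opposite, with 1 of 13 segments above 1. That segment was chr8:60000001-70000000 at 1.06 (0.597 to 1.54). It was at 0.503 in f13 libraries, 1.59 in f14 libraries and 0.995 with windows of 200 kb. The lowest, chr8:1-10000000, was at 0.542 (0.302 to 0.787) with an adjusted sign-flip p of 0.0576 and an adjusted p of 0.625 by the log ratio. It was positive in 3.06% ± 6.0 of windows, with 38 libraries at 0, and 175 of its 250 windows hold no unknown base. Over these its ratio was 0.750 (adjusted sign-flip p = 0.741). When the reference was reweighted to its GC content the ratio of this segment was 0.756, and with windows of unique sequence only it was 0.805. It was called lower with all other autosomes as the reference (0.535, adjusted sign-flip p = 0.0321) and within f14 libraries (0.382, adjusted p = 0.0247).

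On chromosome 11, 8 of 12 segments were above 1, from 0.787 (0.486 to 1.1) in the last, which ends at the telomere, to 1.40 (0.919 to 1.90) in chr11:50000001-60000000, with 178 protein-coding genes. The adjusted sign-flip p was 0.740 and 0.713. The first segment, which holds the Sfi1 window, was at 1.22 and had 11 libraries at 0, the fewest of the 58. Over its 12 segments the ratio and GC content had an r of -0.601, while r was 0.408 on chromosome 1, 0.142 on chromosome 8, 0.0341 on chromosome 14 and 0.0154 over all 58 segments. These are descriptions, because neighbouring segments share libraries.

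Chromosome 14 held the called segment. Its first 10 Mb, chr14:1-10000000, was positive in 1.56% ± 3.45 of windows (SD, n = 74), with 42 libraries at 0 and the highest at 19.6%. The ratio was 0.276 (0.145 to 0.403), with an adjusted sign-flip p of 0.00123 and an adjusted p of 0.000582 by the log ratio. Only 9 libraries had a run of 3 adjacent positive windows there, compared with 25 in the next segment, which was the highest of the chromosome at 1.17 (0.733 to 1.6). The boundary at 10 Mb was the only one called among 54 on the 4 chromosomes, with a distal over proximal ratio of 3.26 (adjusted sign-flip p = 0.00228, and 0.00156 by the log ratio), where 0.439% of all 228 boundaries were called.

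**Figure D4:**
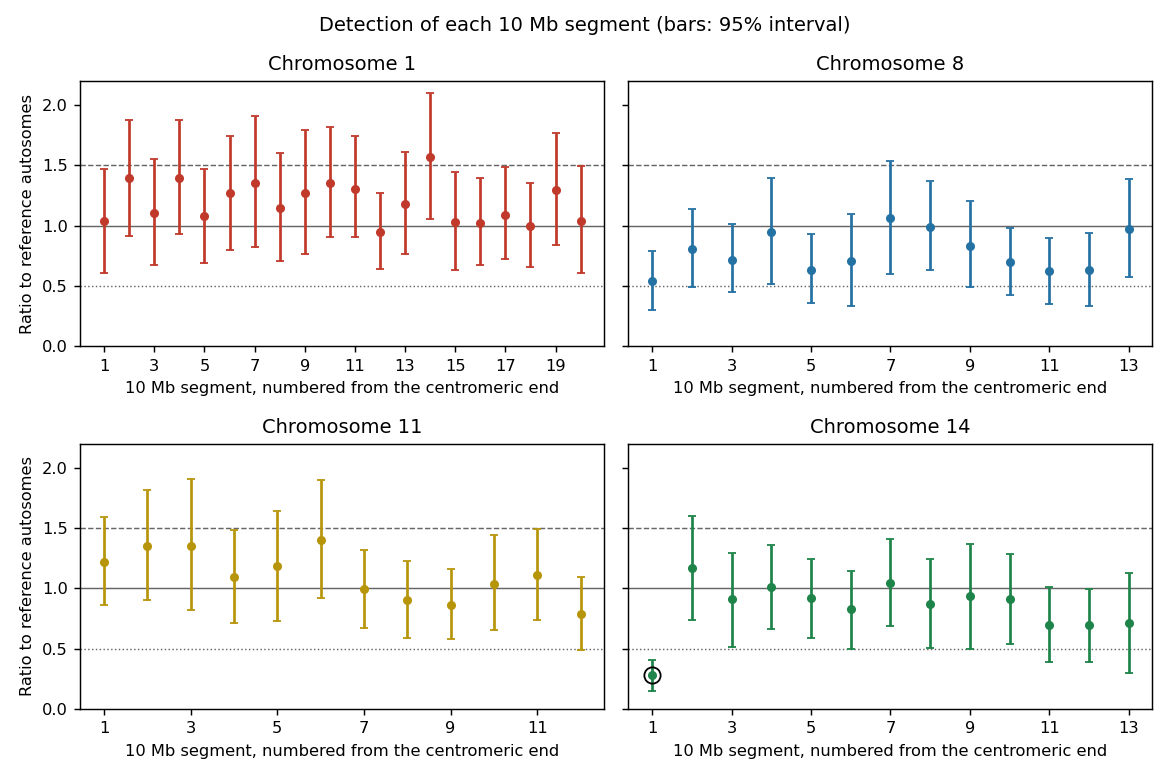
Ratio to the reference autosomes of each 10 Mb segment along chromosomes 1, 8, 11 and 14 over 74 libraries, with 95% sign-flip intervals as bars and lines at 0.5, 1 and 1.5. The ringed point is the called segment, the first of chromosome 14 at 0.276, and the highest is segment 14 of chromosome 1 at 1.57.

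The same segment stood apart in its sequence. Of its words of 32 bases, sampled every 400 bases, 22.2% occurred once in the assembly, the lowest share of all 247 segments, and its next segment was at 82.1%. The first 3 Mb are unknown bases and held no call, as in the first segment of chromosome 8. With windows free of unknown bases only, the ratio of the chromosome 14 segment was 0.410 (adjusted sign-flip p = 0.00247) and the boundary ratio was 2.13 (adjusted p = 0.0410). From 3 to 8 Mb the unique share stayed between 1.65% and 7.28% per Mb and windows averaged 0.2 to 2.44 libraries. From 8 to 9 Mb it was 43.8% with 2.4 libraries, from 9 to 10 Mb it was 82.6% with 2.96, from 10 to 11 Mb it was 86.6% with 2.2, and from 11 to 12 Mb it was 85.1% with 3.92. When only windows with at least 80% unique words were used, a choice made after seeing the data, 27 windows of the segment were left. Its ratio was then 0.698, the adjusted p was 0.775, and the boundary at 10 Mb gave 1.25 with an adjusted p of 0.689. Neither was called any more. The windows left can include few from 3 to 8 Mb, where the unique share was at most 7.28% per Mb, so they say little about that stretch. Whether the unique share bears on the call was not tested. With the same filter of at least 80% unique words, the whole-chromosome ratios were 1.19, 0.788, 1.06 and 0.868 for chromosomes 1, 8, 11 and 14.

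**Figure D5:**
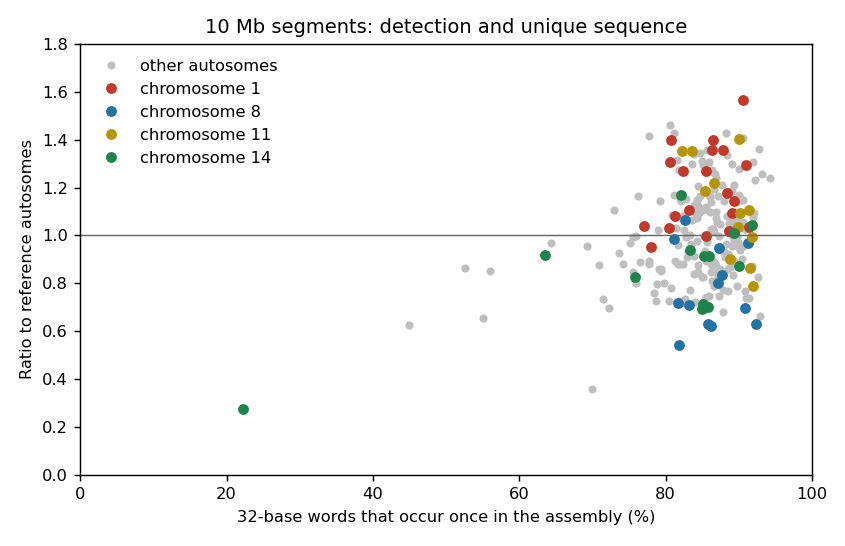
Ratio to the reference autosomes of 247 segments of 10 Mb against the percent of sampled words of 32 bases that occur once in the assembly. The isolated green point is the first segment of chromosome 14, at 22.2% and 0.276.

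Over the 58 segments the ratio and the unique share had an r of 0.339, and over the 56 segments with more than 70% unique words it was -0.00506. Windows positive in no library made up 8.50% of chromosome 14 and 8.99% of chromosome 8, and 3.18% and 3.97% of chromosomes 1 and 11. On the other autosomes this share ran from 2.91% on chromosome 3 to 13.6% on chromosome 7. Chromosome 11 is rich in protein-coding genes, with 13.5 per Mb, against 8.17 on chromosome 8, 7.59 on chromosome 14 and 6.21 on chromosome 1. A relation of gene density to detection was not tested.

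Of 17 pluripotency and growth loci, 10 had a mean above that of the reference and 14 above that of their own chromosome. Among all runs of 26 adjacent windows on the 4 chromosomes, 50.7% and 51.2% were above these means. Above the reference the share was 72.4% on chromosome 1, 23.8% on chromosome 8, 63.5% on chromosome 11 and 32.2% on chromosome 14, so the counts against the reference below largely restate the level of each chromosome. Above the chromosome's own mean it was 52%, 50.3%, 51.3% and 51% in the same order. The loci were not drawn at random, and no test was made of this. On chromosome 1 the Mb around Prdm14, a regulator of naive pluripotency, averaged 5.92 libraries per window, those around Lefty1 and Lefty2, Nodal antagonists, 5.46 and 5.69, and that around Bcl2, which restrains apoptosis, 4.54. All 4 were above the reference mean of 4.18, and 3 were above the chromosome's own mean. Lefty1 and Lefty2 are neighbours, so their values share most windows. On chromosome 8 the Mb around Zfp42, the gene of the pluripotency marker Rex1, had the lowest mean of the 17 loci at 2 libraries. Klf2, another pluripotency factor, was at 3.81, Sall1 at 3.08 and Cdh1, which encodes E-cadherin, at 3.65. All 4 were below the reference mean, and 2 were above that of the chromosome.

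On chromosome 11 the cytokine gene Lif was at 5.77, the tumour suppressor Trp53 at 5.54, Stat3, which transmits the LIF signal, at 5.23, Birc5, an apoptosis inhibitor, at 5.15 and Socs3, a feedback inhibitor of that signal, at 4.85. All 5 exceeded the reference mean and the chromosome's own, and Birc5 and Socs3 are neighbours that share most windows. On chromosome 14, Bmp4 was at 5.12, Rb1, which restrains the cell cycle, at 4.15, Klf5 at 4.12 and Otx2, a gene of the exit from naive pluripotency, at 4 libraries. Of these 4, 1 was above the reference mean and all were above the chromosome's own mean. Neighbouring windows share the same slices, so these means carry no test, and the SD over the 26 windows of each locus was between 1.17 and 2.56 libraries.

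Within each chromosome, windows were found together in the same library more often than their separate frequencies give. At 1 Mb apart the observed over expected co-segregation was 4.23 ± 0.381 on chromosome 1 (jackknife SE over libraries), 5.39 on chromosome 8, 4.24 on chromosome 11 and 5.06 on chromosome 14. At 10 Mb it was 2.42, 3.27, 2.28 and 2.89, and at 50 Mb it was 1.91, 1.90, 1.72 and 2.37. The 15 other autosomes ranged from 4.08 to 5.50, from 2.05 to 3.09 and from 1.51 to 2.57 at these distances. At 10 Mb chromosome 8 (3.27 ± 0.438, jackknife SE) was above that range, whose highest was chromosome 4 at 3.09 ± 0.360, without a test. The expected value uses frequencies pooled over libraries that differ in coverage. No adjustment was made for this or for how often a chromosome was detected.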

How the data were processed

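Each of 74 1NP libraries was scored in windows of 40 kb of mm9. The authors deposited a presence score of 0 or 1 per window and library, with no reads and no scaling; reads per library, which the study lists elsewhere, were not used. The submitters' processing notes name Bowtie2 2.1. A threshold on reads, given in the study's methods for multiplex libraries only, makes shallow libraries sparser, and whether it made these calls is not given in the sources used here. Percentages of positive windows were taken per library and compared with the 15 other autosomes by two-sided sign-flip tests with 100000 resamples, whose inverted test gave the intervals, in Python 3.11.15 with NumPy 2.4.6, pandas 2.3.3 and SciPy 1.17.1. The threshold was an adjusted p of 0.05 (Benjamini-Hochberg). Segments under 5 Mb at chromosome ends were joined to their neighbour. Chromosome lengths of NCBIM37 equalled the last window ends for chromosomes 1 to 19 and X. Words of 32 bases were looked up on both strands, and genes were from GENCODE on NCBIM37. Named segments were the highest and lowest per chromosome and any called. Named windows, libraries and loci followed a written rule, except f14b6 and f13f2, which were named after their values were seen. Members, lists and loci were chosen with earlier results of these data known. The functions were tested on simulated data. Alternatives were library and window filters, GC reweighting, 200 kb windows, other segment sizes, the title prefixes, equal library weights, the jackknife and leaving out each library.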

Additional observations from a re-analysis of the deposited data

How the results depend on the processing

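No ratio of the 4 chromosomes was called different from 1 under any alternative run, and of 336 recomputed values 299 kept their direction and side of the threshold or moved little. Leaving out each library in turn gave ratios of 1.16 to 1.24, 0.744 to 0.809, 1.06 to 1.13 and 0.801 to 0.870 for chromosomes 1, 8, 11 and 14 and ended no call against 1.5-fold. The chromosome 1 ratio turned to 0.947 with f13 libraries only, and that of chromosome 11 to 0.965 with f14 libraries only. Calls below 1.5-fold were lost for chromosome 1 with isolated calls set to negative (1.23), libraries weighted equally (1.29) and f14 only (1.43), and for chromosome 11 with f13 only (1.25). The call of chromosome X below 0.5-fold was lost with windows of 200 kb (0.400) or of unique sequence (0.374), though both ratios stayed below 0.5.

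Member segments called lower numbered 6 of 114 at 5 Mb (all autosomes 21 of 494), 0 of 29 at 20 Mb (0 of 125), 2 with all other autosomes as reference (3 of 247), 2 with f14 only (3 of 247) and 0 with unique sequence (0 of 247), where 0 boundaries were called. The second one was the first segment of chromosome 8, at 0.535 and 0.382 (adjusted sign-flip p = 0.0321 and 0.0247). Those below 1.5-fold numbered 57 of 114 at 5 Mb (all autosomes 48.2%), 19 of 29 at 20 Mb (68.8%), 17 of 58 with f14 only (24.7%) and 21 with the jackknife (39.7%). Segment 12 of chromosome 1 turned to 1.06 with windows of 200 kb and 1.01 with f13 only, and segment 7 of chromosome 8 to 0.995 and 0.503.

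Libraries holding chromosome 8 fell to 51.4% with runs of 5, and those holding chromosome 11 reached 87.8% with runs of 2. With isolated calls set to negative, co-segregation at 1, 10 and 50 Mb was 5.05, 2.75 and 2.16 on chromosome 1 and 6.33, 3.42 and 2.79 on chromosome 14, at 1 and 10 Mb it was 7.08 and 3.98 on chromosome 8, and at 1 Mb it was 5.03 on chromosome 11. The unique sequence filter and the jackknife of segments and boundaries were chosen after seeing the data. The causes of these changes were not tested. Depth was not examined, the 74 libraries are profiles of 1 line, and 25 of 58 segments were called different from neither 1-fold nor 1.5-fold.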
